A study of Mus musculus with 2 samples.

Results

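The Notch pathway was examined through 10 genes of the 27998 counted in single cells of mouse small cell lung cancer (SCLC): the receptors *Notch1*, *Notch2*, *Notch3* and *Notch4*, the ligands *Dll1*, *Dll3*, *Dll4* and *Jag1*, and the factors *Hes1* and *Hes6*. The genes were chosen by name, as those that send the signal, receive it or respond to it, with earlier results of these data known. All 10 were listed in both count tables, and each had at least 1 unique molecular identifier (UMI, a tag that marks 1 captured mRNA molecule). One tumor was dissected from each of 2 mice, TKO1 and TKO2, and each tumor gave 1 10x Chromium library of sorted live cells. The labels write the genotype of both mice as Rb-/-, Trp53-/- and Rbl2-/- with the reporter allele Rosa26membrane-Tomato/membrane-GFP, and the entry for TKO1 carries further characters after it. The background mixes C57BL/6 with 129/SVJ and 129/SvOla. Tumors were induced with Adeno-CMV-cre in the lung and taken 7 months later, when the mice were 8 to 9 months old. The virus drives Cre from a general promoter in whichever airway cells it enters, red blood cells were lysed and dead cells were left out by DAPI staining before capture. No normal lung was analysed here, and with 1 library per tumor the tumor, the mouse and the library cannot be told apart. No test between the tumors is therefore possible, and every interval below is a 95% interval for counting error only.

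Notch receptors are cut on binding a Delta or Jagged ligand on a neighboring cell, and the freed intracellular domain joins the DNA-binding protein RBPJ to switch on target genes. *Hes1*, *Hes5*, *Hey1* and *Nrarp* are classical targets, and HES1 represses proneural genes. *Dll3* is an atypical ligand that stays largely inside the cell and inhibits the receptor in the same cell, and it is known as a surface target in human SCLC. *Hes6* is a relative of *Hes1* that is not switched on by Notch and opposes HES1. In the lung, Notch activity is known to favor club cells over neuroendocrine cells, and in mouse SCLC a share of tumor cells is known to be Notch-active and non-neuroendocrine.

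Of the members, 9 matched a promoter window of RefSeq (build GRCm38.p6), and *Hes1* and *Hey1* had no entry. The 250 bases before each annotated start were searched on both strands for TGGGAA, the core bound by RBPJ, and for CAGCTG, an E-box of the kind proneural factors bind. Among 32851 mouse windows of this length, 21.6% held the first and 13% held the second. None of the members' windows held TGGGAA. An E-box lay 7 to 2 bases before the start of *Dll3*, 132 to 127 before one start of *Dll1*, 82 to 77 before that of *Jag1*, and 171 to 166 and 150 to 145 before the 2 starts of *Hes6*. By the gene bounds of GENCODE M21, the E-boxes of *Dll3*, of *Jag1* and of the second start of *Hes6* lie inside their own gene. The windows of *Dll3* and *Jag1* also overlap an exon of their gene. *Hes5* is no member but had the largest measured ratio between the tumors, bounds apart, of the pathway genes below, and its window held TGGGAA on both strands, at 82 to 77 and at 226 to 221 bases before the start, as did 1.28% of windows. The windows of *Hes5* (chr4:154960673-154960922, plus strand), *Hes6* (chr1:91414039-91414288, minus strand) and *Dll1* (chr17:15376933-15377182, minus strand) are shown because they hold these letters and no exon of their own gene. Each is written 5′ to 3′ on the gene's strand, ending at the base before the start, with the searched letters in capitals. A match says only that the letters are there.
Hes5: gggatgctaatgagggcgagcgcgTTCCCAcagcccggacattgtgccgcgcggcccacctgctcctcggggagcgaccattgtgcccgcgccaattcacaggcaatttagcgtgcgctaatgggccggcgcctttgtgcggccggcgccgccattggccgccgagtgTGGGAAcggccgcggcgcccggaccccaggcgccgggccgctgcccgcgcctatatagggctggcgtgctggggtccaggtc
Hes6: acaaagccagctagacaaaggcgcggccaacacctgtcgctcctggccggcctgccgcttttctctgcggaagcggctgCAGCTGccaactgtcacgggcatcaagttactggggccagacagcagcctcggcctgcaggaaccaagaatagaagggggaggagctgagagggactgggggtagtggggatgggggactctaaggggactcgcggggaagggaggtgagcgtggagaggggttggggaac
Dll1: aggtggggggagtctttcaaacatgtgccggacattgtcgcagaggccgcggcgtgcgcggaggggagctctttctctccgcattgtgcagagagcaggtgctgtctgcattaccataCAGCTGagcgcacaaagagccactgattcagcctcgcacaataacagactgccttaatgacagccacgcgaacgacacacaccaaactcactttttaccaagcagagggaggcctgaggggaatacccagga

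Barcodes with more than 500 detected genes were retained, 3193 in TKO1 and 3568 in TKO2, with a median of 1223 and 1960 UMIs. Of these, 11 barcodes occurred in both libraries (22 of all barcodes), and leaving them out changed no call for a member. Cells were clustered within each tumor and clusters were named from marker genes. Neuroendocrine-like (NE-like) cells numbered 2664 in TKO1 (3810063 UMIs) and 3380 in TKO2 (7758321 UMIs). Macrophage-like cells numbered 98 and 121, with all 12 of the macrophage markers detected, and they also held T cell markers (343 and 595 CPM, the UMIs per 1000000 UMIs of the group, against 5.51 and 0.902 in NE-like cells) and neutrophil markers (839 and 186 CPM, against 1.57 and 0.773). Club-like cells, the secretory cells of the airway, were named in TKO1 only, where 108 cells formed 1 cluster. A cluster of 323 cells in TKO1 had neuroendocrine markers but was led by genes of ciliated cells, and a cluster of 67 cells in TKO2 (1.88% of its cells) held club markers together with 14 neuroendocrine markers. Both were left without a name, the latter under a limit of 10 neuroendocrine markers that was set after the data were seen. Markers of endothelial cells, which are known to use *Notch4* and *Dll4*, were nearly absent from NE-like cells apart from *Egfl7*: *Cdh5* and *Tie1* had 0 UMIs in every group, and of the 602 UMIs of the 6 endothelial markers in TKO2, 598 came from *Egfl7*.

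The receptors were barely detected in the tumor cells of either mouse. *Notch1* (ENSMUSG00000026923, chromosome 2, 26457903 to 26516663, minus strand, as all positions here in build GRCm38 and GENCODE M21) is a main receptor of epithelial progenitors. It had 0 UMIs in the 2664 NE-like cells of TKO1, which allows up to 0.787 CPM, and 43 UMIs in those of TKO2, or 5.54 CPM (4.01 to 7.47). In TKO2 it was thus 7.04 times that limit of 3 UMIs, and 5.48-fold higher at the lower end of the exact interval of the ratio, with 0 in each of the 7 NE-like clusters of TKO1. *Notch2* (ENSMUSG00000027878, chromosome 3, 98013527 to 98150361, plus strand) had 2 and 6 UMIs, and *Notch3* (ENSMUSG00000038146, chromosome 17, 32120820 to 32166852, minus strand) had 0 and 1. Neither can be compared at this depth. *Notch4* (ENSMUSG00000015468, chromosome 17, 34564268 to 34588503, plus strand), known mainly from endothelium, had 16 UMIs in TKO1 and 31 in TKO2, or 4.20 CPM (2.40 to 6.82) and 3.996 CPM (2.71 to 5.67). Its intervals overlapped nearly whole, and the log2 ratio of TKO1 over TKO2 was 0.07 (-0.90 to 0.99) on CPM. All 4 receptor genes, *Dll1* and *Dll4* overlap another annotated gene. Only *Notch1* and *Notch2* do so on their own strand, where reads of the partner could be counted with them. The partner there is the microRNA gene *Mir6996* for *Notch1*, and *Gm42819* and *Gm42820* for *Notch2*.

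Outside the NE-like cells the receptors were also sparse, and *Notch1* stood out in club-like cells. All 7 *Notch1* UMIs of the retained cells of TKO1 lay in 4 of the 108 club-like cells, or 34.8 CPM (14.0 to 71.6). This was 44.2-fold above the limit of 3 UMIs in the NE-like cells of the same tumor, and 27.3-fold at the lower end of the exact interval of the ratio. The fold rests on these 7 UMIs, too few for *Notch1* to count as measured in this comparison. Macrophage-like cells held 0 *Notch1* UMIs in TKO1 and 3 in TKO2 (13.3 CPM, 2.75 to 38.9). *Notch2* had 0 UMIs in macrophage-like and club-like cells, *Notch3* had 1 in club-like cells, and *Notch4* had 2 there and 0 in macrophage-like cells. A count of 0 allows up to 20.98 CPM in the macrophage-like cells of TKO1, 13.3 CPM in those of TKO2 and 14.9 CPM in club-like cells, so that receptor levels like those of the tumor cells could not have been seen in them.

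Of the ligands, *Dll3* and *Dll1* were detected in both tumors. *Dll3* (ENSMUSG00000003436, chromosome 7, 28293553 to 28302238, minus strand) had 245 UMIs or 64.3 CPM (56.5 to 72.9) in the NE-like cells of TKO1 and 784 UMIs or 101 CPM (94.1 to 108) in those of TKO2. TKO2 was 1.57-fold higher and the intervals did not overlap. *Dll1* (ENSMUSG00000014773, chromosome 17, 15367354 to 15376872, minus strand), a ligand that activates receptors on neighbors, had 110 UMIs or 28.9 CPM (23.7 to 34.8) against 248 UMIs or 32.0 CPM (28.1 to 36.2). Its log2 ratio of TKO1 over TKO2 was -0.15 (-0.48 to 0.18) on CPM, an interval that holds 0, and -0.53 (-0.86 to -0.20) relative to the median of all genes, an interval that does not. *Dll4* (ENSMUSG00000027314, chromosome 2, 119325784 to 119335962, plus strand), best known from vessel sprouting, had 28 UMIs in TKO1 and 34 in TKO2, or 7.35 CPM (4.88 to 10.6) and 4.38 CPM (3.03 to 6.12), with intervals that overlapped. The unnamed cluster of TKO2 held 5 *Dll4* UMIs in 67 cells, or 41.1 CPM (13.3 to 95.9), and 1 UMI of the 6 endothelial markers. *Jag1* (ENSMUSG00000027276, chromosome 2, 137081456 to 137116644, minus strand), a Jagged ligand, had 1 and 3 UMIs and was thus at the limit of detection in both.

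The Hes factors differed between the tumors in opposite directions. *Hes6* (ENSMUSG00000067071, chromosome 1, 91411483 to 91414038, minus strand) had 2522 UMIs or 662 CPM (636 to 688) in the NE-like cells of TKO1 and 7894 UMIs or 1017 CPM (995 to 1040) in those of TKO2, 1.54-fold higher in TKO2. *Hes1* (ENSMUSG00000022528, chromosome 16, 30064384 to 30067796, plus strand) had 193 UMIs or 50.7 CPM (43.8 to 58.3) in TKO1 and 123 UMIs or 15.9 CPM (13.2 to 18.9) in TKO2, 3.195-fold higher in TKO1. The plot of CPM by tumor and cell type shows each member on its own scale.

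**Figure D1:**
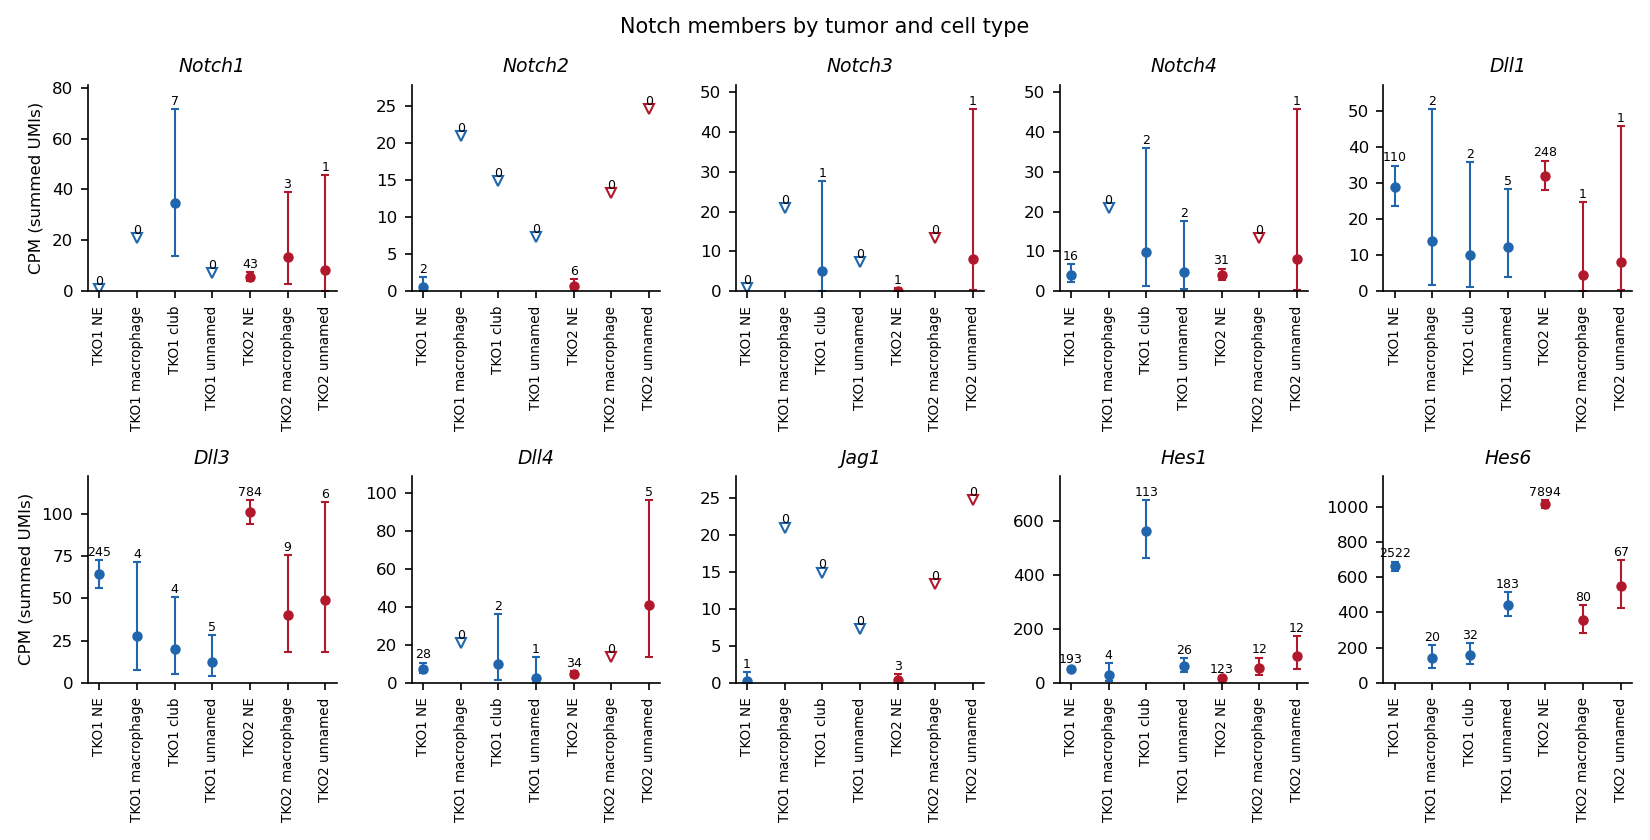
CPM of the 10 members in each cell type of each tumor (blue TKO1, red TKO2, NE for neuroendocrine-like), from summed UMIs, with exact Poisson 95% intervals. The number above a point is its UMI count, and an open triangle marks 0 UMIs, drawn at the limit of 3 UMIs. *Hes6* and *Dll3* are highest in the NE-like cells of TKO2, and *Hes1* is highest in the club-like cells of TKO1 with 113 UMIs.

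To set the members against all genes, the ratio of TKO1 over TKO2 was taken relative to the median of all 12357 genes measured in NE-like cells, which lay at a log2 ratio of 0.38. A gene counted as different at 2-fold or more from that median, and 40.3% of measured genes did so. Of the members 7 were measured, and 4 of these differed. *Hes1* was higher in TKO1 with a relative log2 ratio of 1.30 (0.96 to 1.63), and *Notch1*, *Dll3* and *Hes6* were lower, with *Dll3* at -1.03 (-1.25 to -0.82) and *Hes6* at -1.001 (-1.07 to -0.94). The median of the 7 members was -0.53 with *Notch1* at its bound and -0.42 over the 6 without it, while the quartiles of all measured genes were -0.70 and 0.89. *Dll3* and *Hes6* sit on the 2-fold line and were within 2-fold on plain CPM, where their log2 ratios were -0.65 and -0.62. The direction of *Notch4* was 0.07 on CPM and -0.31 relative to the median, so that none can be given for it.

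**Figure D2:**
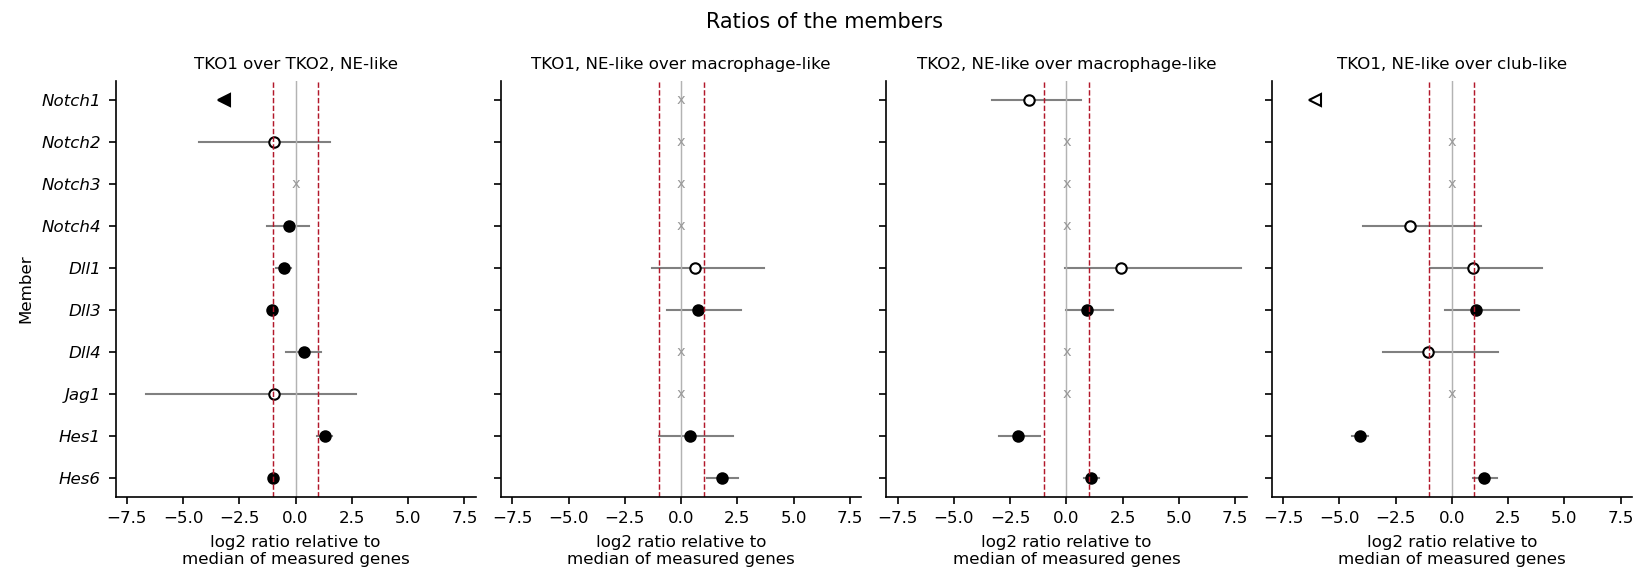
Log2 ratios of the members relative to the median of all measured genes (x axis) in the 4 comparisons, with exact 95% intervals as lines. Filled symbols are measured genes, open symbols had too few UMIs for that, triangles are bounds against 0 UMIs, a cross marks a gene with no ratio, and dashed lines mark 2-fold. Only *Hes1* lies on different sides of 0 in the 2 comparisons with macrophage-like cells, and in TKO1 it is within 2-fold.

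In the comparison with macrophage-like cells of the same tumor, *Hes6* was the member that was higher in tumor cells of both mice. In TKO1 it had 662 CPM against 139.8 CPM (85.4 to 216) in macrophage-like cells, a relative log2 ratio of 1.80 (1.17 to 2.51). In TKO2 it had 1017 CPM against 355 CPM (282 to 442), a relative log2 ratio of 1.11 (0.79 to 1.45). Among cells with more than 1000 detected genes, *Hes6* was at 0.31 in TKO2 and no longer past 2-fold. *Dll3* had 4 UMIs in the macrophage-like cells of TKO1 and 9 in those of TKO2, or 28.0 CPM (7.62 to 71.6) and 40.0 CPM (18.3 to 75.8). Its relative log2 ratio was 0.76 (-0.62 to 2.64) in TKO1 and 0.93 (-0.0031 to 2.06) in TKO2, within 2-fold in both. *Dll1* had 2 UMIs and 1 UMI in these cells and was not measured there. The median log2 ratio of all genes was 0.45 in TKO1 and 0.41 in TKO2. Of the 3 members measured, 1 of TKO1 and 2 of TKO2 were at least 2-fold from the median of all genes, where 39.1% and 36.1% of all measured genes were. In TKO1, 18.3% of genes were higher in NE-like cells and 20.9% lower, and in TKO2 13.3% and 22.8%.

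*Hes1* was lower in the NE-like cells of TKO2 in this comparison, and no direction can be given for it in TKO1. In TKO1 it had 50.7 CPM in NE-like cells and 28.0 CPM (7.62 to 71.6, 4 UMIs) in macrophage-like cells, with overlapping intervals. In TKO2 it had 15.9 CPM in NE-like cells and 53.3 CPM (27.5 to 93.1, 12 UMIs) in macrophage-like cells, 3.36-fold higher in the latter. Among cells with more than 1000 detected genes the relative log2 ratio of NE-like over macrophage-like cells in TKO2 was -1.66 (-3.07 to 0.25), with too few UMIs for *Hes1* to count as measured. For *Hes1* the intervals of the macrophage-like cells of the 2 tumors overlapped. With 4 and 12 UMIs this does not show that their levels are equal. The intervals of the NE-like cells were separate.

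Free RNA can give UMIs in droplets of cells that do not express a gene, and the 18 neuroendocrine markers were set beside the members for this. Summed, the markers were at 4797 CPM in macrophage-like and 24599 CPM in NE-like cells of TKO1, and at 852 and 2220 CPM in those of TKO2. *Hes6* was at 0.211 and 0.349 of its NE-like level there, and *Dll3* at 0.435 and 0.395. *Dll3* rested on 4 and 9 UMIs. The part of free RNA in these levels was not tested. *Hes1* was at 0.552 in TKO1 and at 3.36 in TKO2.

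Club-like cells of TKO1 carried the most *Hes1* of any group. They had 113 UMIs or 561 CPM (463 to 675), 11.1-fold above the NE-like cells of that tumor, with a log2 ratio of -4.09 (-4.43 to -3.74) for NE-like over club-like relative to the median of all genes at 0.62. *Hes1* was found in 50 of 108 club-like cells (46.3%, 36.7 to 56.2) and in 153 of 2664 NE-like cells (5.74%, 4.89 to 6.70), whose median depths were 1664 and 1218 UMIs. Thinned to 1000 UMIs per cell, the shares were 40.9% (30.8 to 51.5) and 4.39% (3.51 to 5.40). *Nrarp*, a Notch target that feeds back on the receptor, was 5.68-fold higher in club-like cells, at 134 CPM (88.4 to 195) against 23.6 CPM (19.0 to 29.0). *Hes5* had 0 UMIs in club-like cells and *Hey1* had 6, or 29.8 CPM (10.9 to 64.9) against 38.6 CPM (32.6 to 45.3) in NE-like cells.

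*Hes6* was lower in club-like cells, with 32 UMIs or 158.9 CPM (109 to 224) and a relative log2 ratio of 1.44 (0.94 to 1.99) for NE-like over club-like. *Dll3* had 4 UMIs there (19.9 CPM, 5.41 to 50.9), and its relative log2 ratio of 1.077 had an interval from -0.30 to 2.96. *Dll1* and *Dll4* had 2 UMIs each and *Jag1* had 0. All 3 members measured were at least 2-fold from the median, where 26.8% of the 5409 measured genes were (12% higher and 14.8% lower in NE-like cells). Among cells with more than 1000 detected genes *Dll3* turned to -0.33, so that no direction can be given for it. In these cells the neuroendocrine markers summed to 7222 CPM, against 24599 CPM in NE-like cells, and *Dll3* was at 0.309 and *Hes6* at 0.240 of its NE-like level. *Hes1*, at 11.1 times its NE-like level, and *Notch1*, with 0 UMIs in NE-like cells, were above their NE-like level. *Rest*, a repressor of neuronal genes that is known to be a Notch target in SCLC, had 9 UMIs in club-like cells and 0 in the NE-like cells of TKO1.

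Across all 7 groups, *Hes1* levels ordered as club-like cells of TKO1 first, then the unnamed cluster of TKO2 (98.6 CPM, 50.9 to 172), the unnamed cluster of TKO1 (63.1 CPM, 41.2 to 92.4), the macrophage-like cells of TKO2, the NE-like cells of TKO1, the macrophage-like cells of TKO1 and last the NE-like cells of TKO2. Among neighbors in this order only club-like cells differed from the next group beyond counting error. *Hes6* ordered from the NE-like cells of TKO2 over those of TKO1, the unnamed clusters of TKO2 (551 CPM, 427 to 699) and TKO1 (444 CPM, 382 to 513), the macrophage-like cells of TKO2 and the club-like cells of TKO1 to the macrophage-like cells of TKO1. Here the 2 NE-like groups were apart, as were the macrophage-like cells of TKO2 and the club-like cells, and the other neighbors overlapped. For *Dll3* the NE-like cells of TKO2 stood above those of TKO1, which overlapped every other group except club-like cells (19.9 CPM) and the unnamed cluster of TKO1 (12.1 CPM, 3.94 to 28.3).

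Within the NE-like cells, each tumor was divided into clusters, and the members differed between these. In TKO1, *Dll3* ranged from 33.7 to 97.1 CPM over its 7 clusters, *Dll1* from 5.89 to 40.4, *Hes1* from 17.7 to 72.3 and *Hes6* from 501 to 848. *Notch4* was detected in all 7 clusters, at 1.85 to 8.53 CPM. In TKO2, *Dll3* ranged from 47.9 to 164 CPM over 8 clusters and *Dll1* from 16.6 to 47.0. *Hes1* ranged there from 4.43 to 55.9 CPM and *Hes6* from 484 to 1365. The ends of these ranges met in 1 cluster of TKO2, cluster 6, which had the highest *Hes1* and the lowest *Dll3* and *Hes6* of the NE-like clusters.

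Cluster 6 of TKO2 held 309 cells and 26 of the 47 *Notch1* UMIs of the tumor (55.3%, 40.1 to 69.8), at 29.7 CPM (19.4 to 43.4). It was taken as the cluster of TKO2 with most *Notch1* UMIs, so its high *Notch1* follows from that choice. Clusters were formed from the same counts, so the differences of cluster 6 from the other cells are a description and no test. The ratios of cluster 6 are on plain CPM, not relative to the median of all genes. No share of all genes past 2-fold is given beside them. The other 7 NE-like clusters together had 17 *Notch1* UMIs or 2.47 CPM, and 12 of these were in cluster 5, which is led by mitotic genes. *Hes1* was at 55.9 CPM in cluster 6 (49 UMIs) and 10.8 CPM in the others, a log2 ratio of 2.38 (1.83 to 2.92). The other classical Notch targets were higher in the same cluster. *Rest* had 0 UMIs there and 2 in the other NE-like cells, too few to compare. *Hes5* had 503 UMIs in cluster 6, or 574 CPM against 40.7 (log2 ratio 3.82, 3.60 to 4.03), *Hey1* had 223 UMIs, or 254 CPM against 20.3 (3.64, 3.33 to 3.96), and *Nrarp* had 61, or 69.6 CPM against 15.1 (2.20, 1.72 to 2.67). *Dlk1*, a ligand without the domain that activates receptors, was at 33.1 CPM against 2.62. It rested on few cells: its 29 UMIs in cluster 6 lay in 12 of 309 cells. Of its 18 UMIs in the other NE-like cells, 16 lay in 4 cells of cluster 1.

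*Hes6* and *Dll3* were lower in cluster 6, and *Dll1* was lower on CPM with an interval that ends next to 0. *Hes6* was at 484 CPM against 1086 in the other NE-like cells (log2 ratio -1.17, -1.31 to -1.03), *Dll3* at 47.9 against 108 (-1.17, -1.65 to -0.72) and *Dll1* at 20.5 against 33.4 (-0.70, -1.48 to -0.01). In thinned cells *Dll1* was found in 2.11% (0.776 to 4.53) of cluster 6 and 3.18% (2.56 to 3.91) of the others, with overlapping intervals. *Dll4* was at 5.70 against 4.21 CPM (0.44, -1.29 to 1.82). *Epcam*, an epithelial adhesion protein, was at 122 against 451 CPM. With 20 principal components in place of 10, the cluster with most *Notch1* held 34.0% of its UMIs in TKO2. *Vim*, an intermediate filament of mesenchymal and non-neuroendocrine cells, had 47 UMIs in cluster 6 and 6 in all other NE-like cells. After thinning, *Vim* was found in only 8 of 285 cells of cluster 6 (2.81%, 1.22 to 5.46) and in 1 of 2734 others. The cluster still had 14 of the 18 neuroendocrine markers at least 2-fold above macrophage-like cells and 0 macrophage or club markers at 4-fold. Its leading gene *Spp1* (3609 UMIs against 81 elsewhere) and the inhibitor of differentiation *Id3* (760 against 319) were named after their values were seen. The median depth of its cells was 2250 UMIs, against 1983 for all NE-like cells of TKO2, and the median doublet score was 0.0732 against 0.0626.

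**Figure D3:**
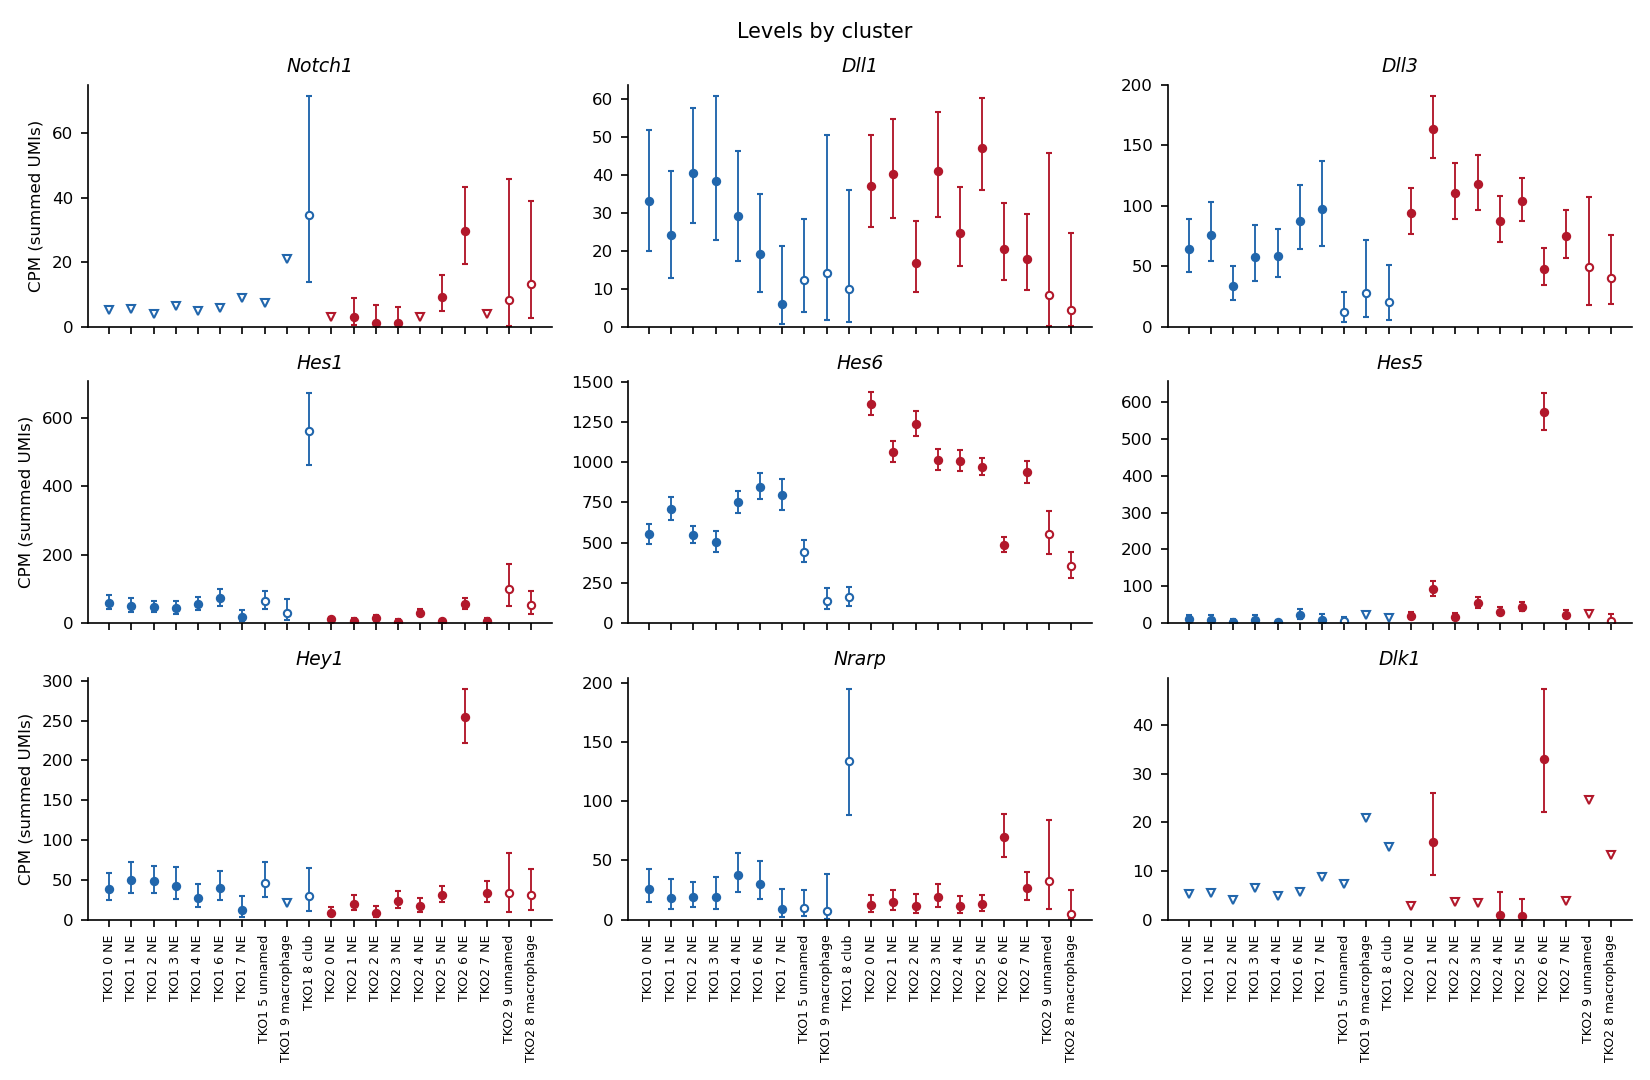
CPM of 5 members, 3 other Notch targets and the ligand *Dlk1* in the 20 clusters (blue TKO1, red TKO2, filled symbols NE-like), with exact Poisson 95% intervals and open triangles at the limit of 3 UMIs where a count was 0. Cluster 6 of TKO2, chosen for its *Notch1* UMIs, has the highest *Notch1*, *Hes1*, *Hes5*, *Hey1* and *Nrarp* of the NE-like clusters of its tumor. The club-like cluster of TKO1 has the highest *Hes1* and *Nrarp* of all 20.

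Single cells were then asked whether they hold a ligand and a receptor at once. Each NE-like cell was thinned to 1000 UMIs, which left 1915 cells of TKO1 and 3019 of TKO2. A ligand member was found in 163 cells of TKO1 (8.51%, 7.30 to 9.85) and 378 of TKO2 (12.5%, 11.4 to 13.8). In macrophage-like cells, taken for comparison, the shares were 4.88% (1.34 to 12.02, 4 of 82 cells) and 3.57% (0.982 to 8.89, 4 of 112). The ligand intervals of NE-like and macrophage-like cells overlapped in TKO1 and were separate in TKO2. A receptor was found in 8 cells of TKO1 (0.418%, 0.181 to 0.821) and 36 of TKO2 (1.19%, 0.837 to 1.65). In macrophage-like cells it was found in 0 of 82 (0 to 4.40%) and 1 of 112 (0.893%, 0.0226 to 4.87), with overlapping intervals in both tumors. A ligand and a receptor together were found in 0 of 1915 cells of TKO1, which allows a share of up to 0.157%, and in 3 of 3019 cells of TKO2 (0.0994%, 0.0205 to 0.290). Without thinning they were together in 3 of 2664 cells (0.113%) and in 25 of 3380 (0.740%).

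Cells with and without a receptor did not differ in their share with a ligand beyond counting error. In TKO2, 3 of the 36 receptor-positive cells held a ligand (8.33%, 1.75 to 22.5), against 12.6% (11.4 to 13.8) of the receptor-negative cells. The 288 cells with *Dll3* included 0 with *Notch1*, where 19 of the other cells had it (0.696%, 0.419 to 1.084), and a count of 0 in 288 allows up to 1.04%, so that a difference was not detectable. *Dll1* and *Dll3* were together in 13 cells of TKO2 (0.431%) and 3 of TKO1 (0.157%). Among cells with *Dll1*, 14.0% (7.66 to 22.7) of TKO2 also had *Dll3*, against 9.40% (8.37 to 10.5) of cells without it. In TKO1 the shares were 6.38% (1.34 to 17.5) and 5.67% (4.67 to 6.82).

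*Hes6* had a higher share in cells with a ligand than in those without in both tumors, with overlapping intervals. In TKO2 it was found in 61.9% (56.8 to 66.8) of cells with a ligand and in 56.2% (54.2 to 58.1) of cells without. In TKO1 the shares were 45.4% (37.6 to 53.4) and 43.1% (40.8 to 45.4). *Hes6* was found in 14.3% (8.39 to 22.2) of thinned macrophage-like cells of TKO2 and 10.98% (5.14 to 19.8) of those of TKO1. *Hes1* was found in 0.794% (0.164 to 2.30) of ligand-positive and 1.25% (0.862 to 1.75) of ligand-negative cells of TKO2, and in 3.07% (1.00 to 7.01) and 4.51% (3.59 to 5.59) of those of TKO1. *Hes6* was found in 47.2% (30.4 to 64.5) of cells with *Hes1* and 57.0% (55.2 to 58.8) of cells without in TKO2, and in 44.0% (33.2 to 55.3) and 43.3% (41.0 to 45.6) in TKO1. The intervals overlapped in each of these pairs, which does not show that the shares are equal.

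In this way 147 pairs were compared in TKO1 and 182 in TKO2, which share cells and genes. The pairs of TKO2 below had separate intervals unless said otherwise, and cells of cluster 6, described above, weigh in them. *Hes5* was found in 9 of the 36 cells with *Hes1* (12.1 to 42.2%) and in 5.56% (4.77 to 6.45) of the others. It was found in 5 of the 19 cells with *Notch1* (26.3%, 9.15 to 51.2) and in 5.67% (4.87 to 6.55) of cells without. Conversely *Hes5* was less frequent in cells with *Hes6*, at 3.902% (3.04 to 4.93) against 8.29% (6.85 to 9.93), as was *Hey1*, at 2.97% (2.22 to 3.89) against 5.91% (4.70 to 7.34). *Hey1* was also less frequent in cells with *Dll3*, at 1.39% (0.380 to 3.52) against 4.54% (3.79 to 5.39), while for *Hes5* the shares of 2.78% (1.21 to 5.40) and 6.11% (5.25 to 7.08) had overlapping intervals. *Epcam* was more frequent in cells with *Hes6*, at 31.7% (29.5 to 34.0) against 25.6% (23.2 to 28.0). In TKO1 *Hes5* was too rare for this, with 17 cells in all, and *Hey1* was found in 4.70% (3.37 to 6.38) of cells with *Hes6* and 4.05% (2.96 to 5.40) of those without.

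The shares were also taken within and outside cluster 6, a split made after the data were seen. Outside it *Hes5* was found in 2.45% (1.76 to 3.32) of the 1632 cells with *Hes6* and 2.63% (1.77 to 3.76) of the 1102 without, and within it in 31.8% (22.1 to 42.8) of 85 and 39.5% (32.7 to 46.6) of 200. *Hey1* was found outside it in 1.96% (1.34 to 2.76) of cells with *Hes6* and 1.81% (1.11 to 2.79) of those without, and within it in 22.4% (14.0 to 32.7) and 28.5% (22.4 to 35.3). The separate intervals of the pooled cells were not seen on either side. Clusters were formed from the same counts and each side holds fewer cells, so the split is a description and no test. Of the 19 cells with *Notch1*, 11 were in cluster 6, where *Hes5* was found in 4 of them and in 37.2% (31.5 to 43.2) of the other cells. Outside it *Hes5* was found in 1 of the 8 cells with *Notch1* and in 2.49% (1.94 to 3.15) of the others. All 9 cells with both *Hes1* and *Hes5* were in cluster 6, among its 15 cells with *Hes1* (60.0%, 32.3 to 83.7), against 35.9% (30.2 to 41.96) of its cells without. Outside it *Hes5* was found in 0 of the 21 cells with *Hes1* and in 2.54% (1.98 to 3.21) of the others. *Hey1* was found in 3 of the 11 cells with *Dll3* in cluster 6 and in 26.6% (21.5 to 32.3) of its other cells. Outside cluster 6 it was found in 1 of 277 cells with *Dll3* (0.361%, 0.00914 to 1.99). The share was 2.08% (1.55 to 2.72) in cells without *Dll3* there. That difference had the direction of the pooled cells, and the intervals overlapped. *Epcam* was found outside cluster 6 in 32.7% (30.4 to 35.1) of cells with *Hes6* and 28.7% (26.0 to 31.4) of those without, and these intervals overlapped. Within it the shares were 12.9% (6.64 to 22.0) and 8.5% (5.03 to 13.3), also overlapping. No pair of these genes kept separate intervals within or outside the cluster. Cells with *Notch1*, *Hes1* or *Dll3* are few in the cluster, and overlap does not show that shares are equal.

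**Figure D4:**
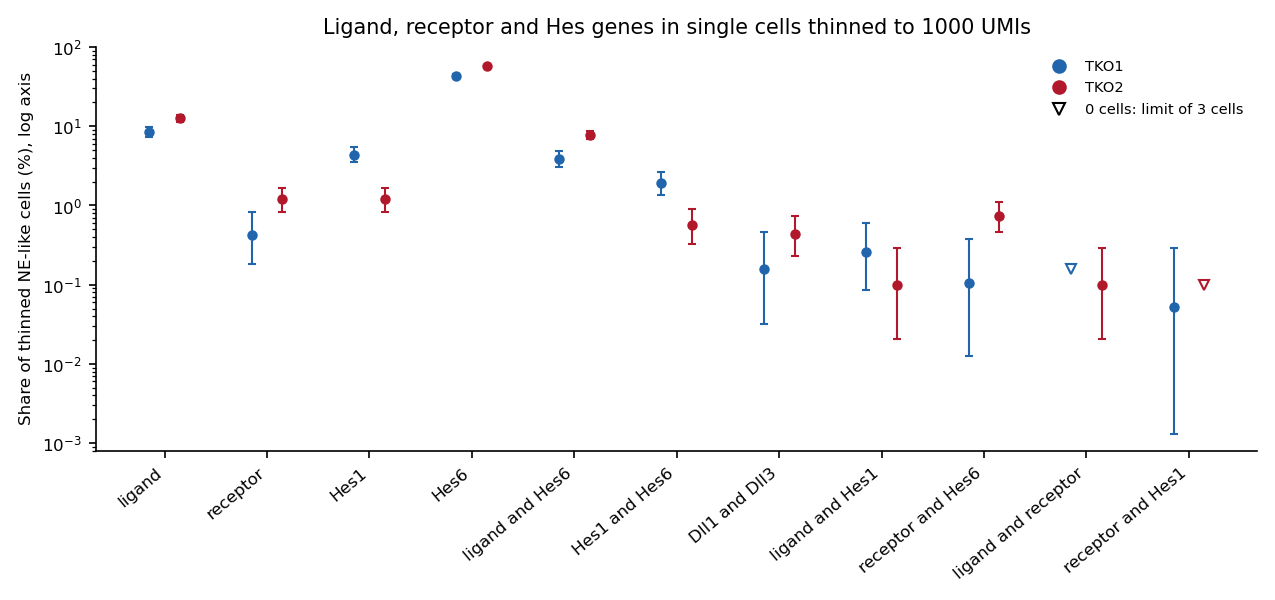
Share of NE-like cells (log axis, in %) that held the named genes after thinning to 1000 UMIs, in TKO1 (blue, 1915 cells) and TKO2 (red, 3019 cells), with exact Clopper-Pearson 95% intervals. Open triangles mark 0 cells, drawn at the limit of 3 cells. *Hes6* is found in 43.3% and 56.9% of cells, and a ligand with a receptor in 0 and 3 cells.

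Cluster 6 of TKO2 differed from the other NE-like cells in single cells as well, again as a description. Of its 285 thinned cells, 164 (57.5%, 51.6 to 63.4) held at least 1 of *Hes1*, *Hes5*, *Hey1* and *Nrarp*, against 175 of 2734 other NE-like cells (6.40%, 5.51 to 7.38). A receptor was found in 13 of them (4.56%, 2.45 to 7.67) and a ligand in 18 (6.32%, 3.79 to 9.80), against 0.841% and 13.2% of the others. *Notch1*, by which the cluster was chosen, was found in 11 of its cells, so the receptor share follows in part from that choice. Of the 3 thinned cells of TKO2 with a ligand and a receptor, 2 were in cluster 6. *Hes5* and *Hes6* were together in 27 of its cells (9.47%, 6.34 to 13.5).

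The other genes of the pathway were taken from a list of 46, all of which were counted. In NE-like cells 39 were measured between the tumors, of which 7 were higher in TKO1, 4 were higher in TKO2 and 28 were within 2-fold of the median of all genes, where 22.8% of all measured genes were higher in TKO1 and 17.5% lower. Their median relative log2 ratio was 0.02 with *Dlk1* at its bound and 0.07 over the 38 without it. Of the other ligands, *Jag2* was higher in TKO1 at 12.3 CPM against 3.74 (relative log2 ratio 1.34, 0.64 to 2.06), and *Dlk1* had 0 UMIs in TKO1 and 47 in TKO2. Of these 47, 29 lay in 12 cells of cluster 6 and 16 in 4 cells of cluster 1. *Dner*, a ligand of neurons, was within 2-fold at 130.2 and 78.4 CPM.

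The measured genes that prepare the ligands and receptors were detected in both tumors. Of the 4 ubiquitin ligases that drive ligand endocytosis, *Mib2* and *Neurl1b* were higher in TKO1 and *Mib1* and *Neurl1a* were within 2-fold. Of the 5 glycosylation enzymes, *Mfng*, a Fringe that tunes which ligand a receptor answers, was higher in TKO2 at 173 CPM against 90.02 (relative log2 ratio -1.32, -1.499 to -1.15), while its relative *Lfng* was at 66.1 CPM in TKO1 and 26.7 in TKO2 (0.93, 0.66 to 1.20) and just within 2-fold. Of the 9 cleavage genes measured, *Furin* and *Aph1b* were higher in TKO1 and 7, including the γ-secretase subunits *Ncstn* and *Psenen*, were within 2-fold. *Rbpj* itself was at 34.9 CPM in TKO1 and 22.9 in TKO2 (0.22, -0.11 to 0.56), and *Spen*, a corepressor, was higher in TKO1. Of the 9 genes of inhibition and turnover, *Fbxw7* was higher in TKO1 and *Dtx4* in TKO2, and *Nrarp* was at 23.6 and 21.3 CPM.

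*Hes5* had the largest measured ratio of the list, bounds apart. It had 33 UMIs or 8.66 CPM (5.96 to 12.2) in the NE-like cells of TKO1 and 783 UMIs or 101 CPM (93.98 to 108) in those of TKO2, a relative log2 ratio of -3.92 (-4.47 to -3.42). It ranged from 1.62 to 20.9 CPM over the NE-like clusters of TKO1 and from 16.6 to 574 over those of TKO2, and 64.2% of its UMIs in TKO2 lay in cluster 6. Without that cluster *Hes5* was still at 40.7 CPM. *Hey1* was within 2-fold, at 38.6 CPM in TKO1 and 46.8 CPM in TKO2 (-0.66, -0.95 to -0.38). *Hes1* and *Hes5* were thus higher in different tumors.

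Against the other cell types, fewer genes of the list could be measured. Among all genes measured against macrophage-like cells, 18.3% were higher and 20.9% lower in NE-like cells of TKO1. In TKO2 these shares were 13.3% and 22.8%, and against club-like cells of TKO1 they were 12% and 14.8%. Of 12 measured against macrophage-like cells in TKO1, 3 were higher in NE-like cells, *Dner* and *Mfng* among them, and 3 were lower (*Furin*, *Adam17* and *Psen2*, which act in cleavage). Of 12 in TKO2, 2 were higher (*Dner* and *Hes5*) and 5 were lower (*Lfng*, *Adam10*, *Adam17*, *Ncstn* and *Spen*). *Adam17*, a protease that sheds receptors, was thus lower in the tumor cells of both mice. Of 13 measured against club-like cells in TKO1, *Mfng* and *Dtx3* were higher in NE-like cells and *Adam10*, *Itch* and *Nrarp* were lower.

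**Figure D5:**
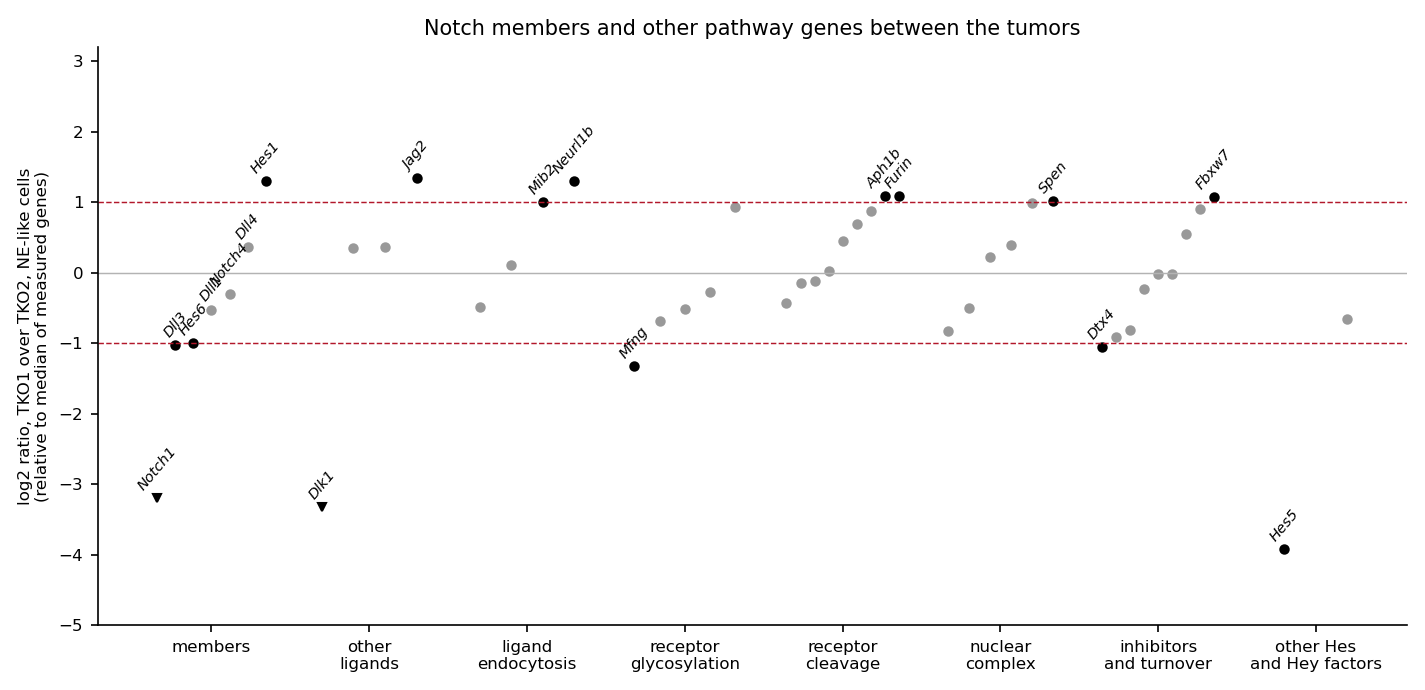
Log2 ratio of TKO1 over TKO2 in NE-like cells, relative to the median of all measured genes, for the 7 measured members and the 39 measured pathway genes by role. Black symbols are at least 2-fold from the median, triangles are bounds against 0 UMIs in TKO1, and dashed lines mark 2-fold. *Hes5*, *Dlk1* and *Notch1* lie lowest and *Jag2* highest.

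For the members with at least 100 UMIs, the genes with the most similar pattern were sought over the 20 clusters by Pearson's r of log2(CPM + 10), among 9029 genes. The clusters share 2 libraries and the r values are a description. *Hes6* was closest to *Uchl1* (r = 0.935), a neuroendocrine marker, then *Snrpd3* (0.935) and *Atp5b* (0.929). *Hes1* was closest to *Por* (0.886), *Gstm2* (0.868) and *Selenbp1* (0.866). *Dll3* was closest to *Ndufa4* (0.868), *Snrpf* (0.853) and *Ccdc167* (0.850), and *Dll1* to *Rdh11* (0.819), *Pdhx* (0.784) and *Bag4* (0.769).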

How the data were processed

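Single cell RNA was measured in 2 tumors, and the authors deposited raw UMI counts per gene and barcode, for which the submitters' notes name Cell Ranger, Seurat and mm10. Versions are not given in the sources used here. Barcodes were kept if over 500 genes were detected and mitochondria-encoded genes gave under 10% of UMIs, which left 70.7% of 4514 in TKO1 and 93.5% of 3816 in TKO2, from libraries of 5285038 and 8291430 UMIs. Each tumor was clustered with Seurat 5.3.0 (R 4.3.3) on genes in at least 10 cells, scaled to 10000 UMIs, with 1000 variable genes, 10 principal components and resolution 0.8. A cluster was named from at least 3 markers at 4-fold over other clusters, or for neuroendocrine-like clusters at 2-fold over macrophage-like cells, and was left unnamed where other markers led it. Scrublet (scanpy 1.11.5) called 0 doublets in either library, and none were removed.

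UMIs were summed per tumor and cell type. A gene was measured where at least 5 UMIs would be expected in the smaller group at the mean CPM of both. Intervals are exact Poisson (CPM), exact conditional binomial (log2 ratios) or Clopper-Pearson (shares), and a count of 0 was set at 3 UMIs. No p-value was computed, since each tumor has 1 library and cells are not replicates. Cells were thinned to 1000 UMIs (seed 1), which left out 749 NE-like cells of TKO1 and 361 of TKO2. Python 3.11.15, numpy 2.4.6, scipy 1.17.1, pandas 2.3.3 and matplotlib 3.10.9 were used, and edgeR 4.0.16 for alternative scaling factors (TMM). Genes named are the members, listed genes past 2-fold, and the 3 most similar genes per member, and others are said to be named after their values were seen. Of 27998 gene IDs, 27645 matched GENCODE M21. The scripts were tested on simulated data. The members and lists were chosen with earlier results of these data known. Some genes of the lists are not reported here.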

Additional observations from a re-analysis of the deposited data

Results flagged for a closer look

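*Hes1* had a relative log2 ratio of NE-like over macrophage-like cells of 0.41 in TKO1 and -2.16 in TKO2. The first is within 2-fold with overlapping intervals, so that no direction can be given for TKO1. The difference between the tumors was not tested, and the value of TKO1 rests on 4 UMIs in macrophage-like cells.

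The members were also found in barcodes that the comparisons did not use. Barcodes with 500 or fewer detected genes held 400 UMIs of the 10 members in TKO1 (557 CPM, 504 to 614) and 161 in TKO2 (865 CPM, 736 to 1009). In TKO1, *Hes1* was at 148 CPM (121 to 178) in these barcodes, above the 50.7 CPM of NE-like cells, and 6 *Notch1* UMIs lay among them. The 2 clusters without a name held 222 UMIs of the members in TKO1 and 94 in TKO2.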

How the results depend on the processing

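Alternatives were other scalings, filters, clusterings, thinning depths and doublet removal. The unnamed cluster counted as NE-like, cluster 6 of TKO2 left out and shared barcodes left out were added after the data were seen. *Hes1* was at least 2-fold higher in TKO1 in all of them that compared the tumors. Between the tumors, 4 members were past 2-fold as reported, and 2 (*Hes1* higher and *Notch1* lower) with totals without ribosomal protein and mitochondria-encoded genes, 1 at 20 expected UMIs, 2 among cells with more than 1000 detected genes and 2 at resolution 0.4. Against macrophage-like cells of TKO1 the count went from 1 to 2, with *Dll3* added, under those totals, with 20 principal components and without the highest 5% of Scrublet scores. In TKO2 it went from 2 to 1 at 20 expected UMIs and to 0 with more than 1000 detected genes, where *Dll3* over club-like cells of TKO1 turned to -0.33. The pathway list went from 11 to 6 at resolution 0.4 and to 7 without cluster 6, where *Notch1*, at 17 UMIs against 0, was no longer measured. Ligand and receptor co-detection was 0.442% of TKO1 cells and 0.781% of TKO2 cells at 2000 UMIs. Without thinning it was 0.113% in TKO1 and 0.740% in TKO2, where cells with fewer than 1000 UMIs were counted too. The causes of these differences were not tested. At resolution 0.4 no club-like cluster was named, which left no value for that comparison. No paired analysis was possible because each tumor has 1 library and no result comes from a test. Depth limits the receptors and *Jag1* most.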
